A study of Mus musculus with 6 samples.

Results

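Enzymes and a transporter that handle arginine, nitric oxide and polyamines were examined in mouse microglia after contact with neutrophils from the injured spinal cord. They were 10 of the 55335 genes listed, and 8 are described: the transporter Slc7a2, the citrulline recycling enzymes Ass1 and Asl, the nitric oxide genes Nos2 and Gch1, and the polyamine enzymes Odc1, Srm and Sms. They were chosen for their place in the pathway when the difference between these same samples was already known. Their own values are therefore given as a description, without p-values, and where it is said which of them passed a threshold, this supports nothing.

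Primary microglia came from the brains of newborn C57BL/6 mice of WT genotype in every library and were detached by shaking on day 14 of mixed glial culture. They were kept for 24 h with neutrophils that had been isolated by magnetic sorting from spinal cord lesions 3 days after injury (3 dpi), and were then recovered by flow sorting as Ly6G- cells. The neutrophils of one group came from Cd177 WT mice and those of the other from Cd177 KO mice, which lack the neutrophil surface glycoprotein CD177 (WT group and KO group below). Each group had 3 libraries, and the labels do not say whether these came from separate cultures or animals, so the spread between libraries may be technical. In bulk RNA, fewer cells expressing a gene and less RNA per cell cannot be told apart.

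Arginine enters the cell through cationic amino acid transporters and is a substrate for competing enzymes. The inducible nitric oxide synthase encoded by Nos2 turns it into nitric oxide and citrulline, with tetrahydrobiopterin as a cofactor, and citrulline is turned back into arginine by the enzymes encoded by Ass1 and Asl. Arginine is also a source of ornithine, which ornithine decarboxylase (Odc1) converts into putrescine, the starting point of the polyamines spermidine and spermine. In macrophages and microglia, Nos2 is a classical marker of inflammatory activation.

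Expression was given as FPKM, the fragments of a gene divided by its transcript length in kilobases and by the library's mapped fragments in units of 1e+06. FPKM values summed to 314084.9 to 315632.4 per library in the WT group and 323588.4 to 326868.0 in the KO group, and mitochondrial genes held 11.1% to 11.32% and 14.31% to 14.62% of the sum. Cd177 itself was near 0 in all 6 libraries (0.113 to 0.477 FPKM in the WT group and 0.0217 to 0.109 in the KO group). It was deleted in the neutrophils, not in the cells sequenced, so these values do not check the labels. Of 10 macrophage marker genes, all had a mean above 1 FPKM, with a summed level of 1647 to 1715 FPKM in the WT group and 1792 to 1843 in the KO group. Of these, 6 differed by limma at an adjusted p under 0.05, in both directions: Adgre1 was at 99.7 to 104 FPKM in the WT group and 37.5 to 40.4 in the KO group, and Laptm5 at 44.9 to 46.4 and 80.3 to 86.5. Of 10 genes listed as microglia identity markers, 8 had a mean under 1 FPKM. The summed level of the 10, most of it Trem2, was 14.4 to 16.8 FPKM in the WT group and 29.7 to 30.5 in the KO group. The other two both differed in limma, Trem2 (11.2 to 13.2 and 27.5 to 28.2 FPKM) being higher and Cx3cr1 (2.41 to 2.98 and 0.956 to 1.43) lower in the KO group. Sall1 and Fcrls were at 0 in all libraries and P2ry12 did not exceed 0.148 FPKM, so these transcripts of homeostatic microglia were absent or near 0. Of 15 neutrophil markers, 13 had a mean under 1 FPKM, and Ly6g, S100a9, Mpo, Elane, Ltf and Retnlg were at 0 throughout. The summed neutrophil list was 118 to 122 FPKM in the WT group and 1.70 to 2.55 in the KO group. Without Lcn2 and Mmp9 these sums were 1.82 to 2.07 and 0.791 to 1.19 FPKM. All 10 astrocyte, oligodendrocyte and fibroblast markers had a mean under 1 FPKM.

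Promoter sequence could be shown for some of the genes. RefSeq promoter windows were matched by symbol for 4 of the 8 genes described (Odc1, Gch1, Ass1 and Sms), and none was used for Nos2, Asl, Slc7a2 or Srm. The bases just before the start of Odc1, of Gch1 and of Sms are shown, since these genes had a large difference, a small difference and no clear difference between the groups (values below). They are from GRCm38.p6, on the strand of each gene, and leave out any base inside the annotated gene. RefSeq holds a pair of windows for Sms, and the one at the start of the annotated gene is shown. The Odc1 stretch is chr12:17544623-17544793 (+), the Gch1 stretch is chr14:47189414-47189663 (-) and the Sms stretch is chrX:157492288-157492537 (-). Capitals mark the short motifs named below.
Odc1: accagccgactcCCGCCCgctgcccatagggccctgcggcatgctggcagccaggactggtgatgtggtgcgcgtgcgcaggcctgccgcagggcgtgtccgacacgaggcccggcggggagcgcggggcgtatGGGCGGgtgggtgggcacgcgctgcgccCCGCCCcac
Gch1: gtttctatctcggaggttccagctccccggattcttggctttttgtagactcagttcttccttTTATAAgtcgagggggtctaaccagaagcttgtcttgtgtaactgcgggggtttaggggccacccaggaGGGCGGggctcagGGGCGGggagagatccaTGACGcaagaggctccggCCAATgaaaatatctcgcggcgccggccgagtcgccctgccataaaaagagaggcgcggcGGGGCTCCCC
Sms: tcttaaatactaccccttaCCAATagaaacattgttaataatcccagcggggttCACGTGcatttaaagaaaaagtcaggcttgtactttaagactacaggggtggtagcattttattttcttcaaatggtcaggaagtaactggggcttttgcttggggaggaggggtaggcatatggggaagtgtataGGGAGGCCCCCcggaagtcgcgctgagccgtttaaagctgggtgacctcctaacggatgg

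The 250 bases before each RefSeq start were searched on both strands for 11 motifs, and positions are counted backwards from that start. A GC box (GGGCGG), the letters bound by SP family factors, was present in 32.7% of 32851 promoters. Odc1 had 4 of them, with first bases at -238, -116, -88 and -15, of which the first 3 fall in the stretch shown, and the other Sms window also had 4, at -176, -172, -168 and -128. Gch1 had 2, at -118 and -105. A CCAAT box (CCAAT; 33.8% of promoters) lay at -70 in Gch1 and at -231 in Sms. The NF-κB consensus (5.0% of promoters) matched at -10 in Gch1 and, as overlapping matches, at -60 and -59 in Sms (and at -103 in its other window), but not in the Odc1 window. Gch1 further held TATAA at -187 and -186 on opposite strands, with overlapping letters (22.8% of promoters), and TGACG, the core of the cAMP response element, at -88 (17.8%), which also lay at -79 in Odc1, outside the stretch shown. Sms held the E-box CACGTG at -196 (6.0%). The AP-1 letters TGANTCA, the C/EBP letters TTGCNNAA, the ATF4 letters TGATGNAA, the STAT letters TTCNNNGAA and the interferon response letters GAAANNGAA had no match before these 3 starts, and are in 6.7%, 9.6%, 3.5%, 7.0% and 7.1% of promoters. These are letter matches only, and no binding was measured.

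Across these 8 genes, the difference between the groups was carried mainly by Nos2 and Odc1, which had the lowest values with KO neutrophils relative to WT. Gch1, Ass1, Asl and Slc7a2 were lower by smaller amounts, Srm was higher, and Sms was nearly level. Differences were fitted as KO minus WT on log2(FPKM + 1), a scale that understates the change of genes with few FPKM. All 8 had a mean of at least 1 FPKM and were tested, and 7 had an adjusted p under 0.05 in limma, 6 lower and 1 higher. Each fit that left out 1 library called 5 of them, and Nos2, Gch1, Ass1 and Odc1 were the 4 called in all 6 such fits. Among all 11395 genes tested the share was 43.3%, with 18.8% lower and 24.5% higher. The ranges of the WT and KO libraries did not overlap for 7 of the 8, against 55.8% of all genes tested. Nothing is read from these counts, because the members were picked on the same contrast. The median log2 change of the 8 was -0.25, against 0.02 over all genes tested. Of the 8, Nos2 and Odc1 were past 2-fold on the fitted scale, among 314 such genes. Nos2 passed the filter on low values only through the WT group, in which it was higher.

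**Figure D1:**
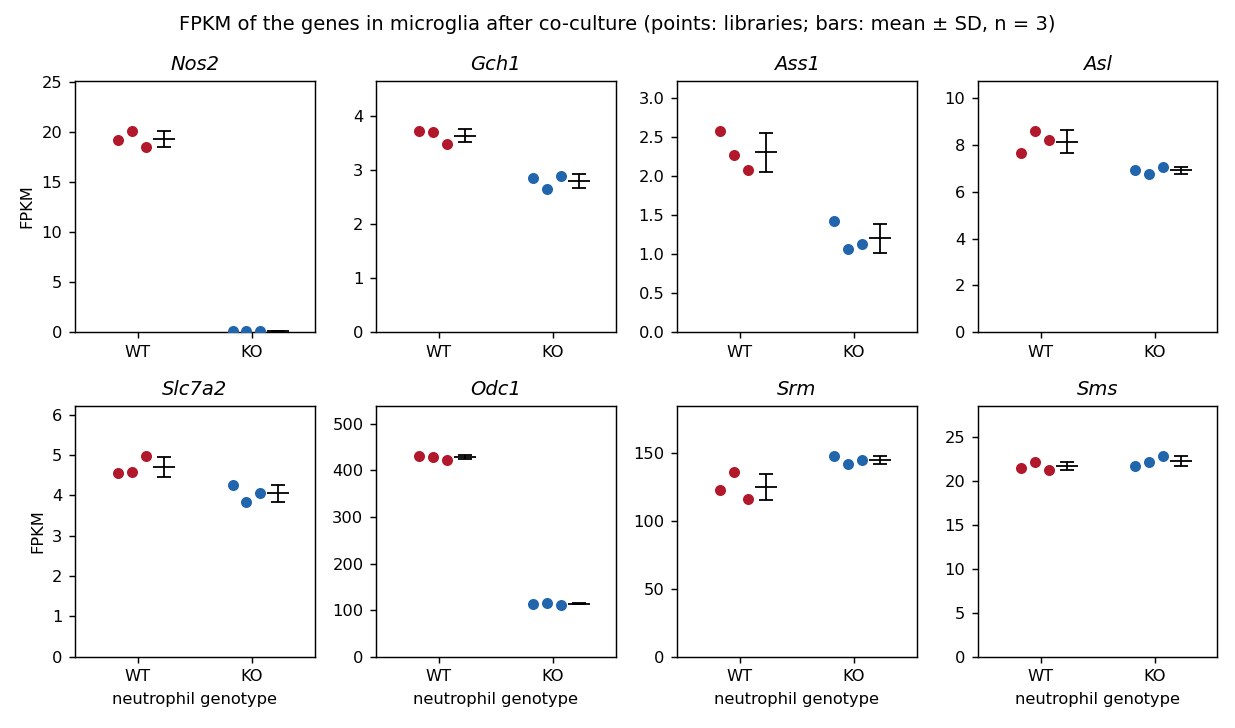
Level of each of the 8 genes in FPKM (vertical axes, linear, from 0, each gene on its own scale) in the 3 WT and 3 KO libraries (points), with mean ± SD (bars). Nos2 and Odc1 show the widest gaps, and Sms overlaps between the groups.

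Slc7a2, the cationic amino acid transporter 2 of macrophages (chr8:40862396-40922308 on GRCm38), was at 4.55, 4.58 and 4.98 FPKM in the WT libraries and at 4.26, 3.83 and 4.05 in the KO libraries. Every KO library was lower than every WT library, but by less than 1 FPKM between the means (4.70 ± 0.242 against 4.05 ± 0.216, SD, n = 3). The log2 change was -0.18 with an SE of 0.057. It was not past the threshold under several other settings, including each of the 6 fits that leave out 1 library. An exon of Gm26584 lies on the opposite strand, and whether counting used strand is not given in the sources used here.

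The enzymes that rebuild arginine from citrulline were both lower with KO neutrophils. Ass1, argininosuccinate synthase (chr2:31470207-31520672), was at 2.57, 2.27 and 2.08 FPKM with WT neutrophils and at 1.42, 1.07 and 1.13 with KO neutrophils. The groups did not overlap, and the WT mean was 1.91 times the KO mean (2.30 ± 0.248 against 1.20 ± 0.187, SD, n = 3). The log2 change was -0.58 (SE 0.0919), and -0.89 with a pseudocount of 0.1. Asl, argininosuccinate lyase (chr5:130011258-130029247), was at 7.64, 8.59 and 8.23 FPKM in the WT group and at 6.95, 6.75 and 7.07 in the KO group. These ranges were separate, with a log2 change of -0.21 (SE 0.0507). The Ass1 to Asl ratio was 0.252 to 0.336 in the WT libraries and 0.158 to 0.204 in the KO libraries. Part of the Ass1 signal was uncertain, since the Gm5424 transcript is 99.5% identical to Ass1 over 1240 bases. Gm5424 held 3.44% to 28.2% of the summed FPKM of this pair, and the sum was 2.78 in the WT group and 1.32 in the KO group.

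Nos2, the inducible nitric oxide synthase (chr11:78920787-78960254), was at 19.2, 20.1 and 18.5 FPKM in the WT libraries. In the KO libraries it was at 0.133, 0.124 and 0.153 FPKM. The means were 19.3 ± 0.814 and 0.137 ± 0.0147 (SD, n = 3), a ratio of 141. Its fitted log2 change of -4.16 (SE 0.051) ranked 8 by size among all genes tested, and it was -6.36 with a pseudocount of 0.1 and -5.46 when each library was rescaled to a common sum before 1 was added. The KO values lay above 0.055 FPKM, the level that 3 fragments of the shortest coding transcript would give at the depth inferred for these libraries, so Nos2 was low there but still listed. The neutrophil list moved the same way, with its summed level given above, and its part in the Nos2 difference was not tested. Ly6g, S100a9 and Mpo were at 0 in both groups. Some markers detected at low levels were lower in the KO group, such as S100a8 at 0.310 to 0.456 against 0 to 0.181 FPKM, and Csf3r at 0.546 to 0.744 against 0.223 to 0.399. Others overlapped between the groups, such as Mmp8 at 0.0244 to 0.302 against 0.108 to 0.172, and Cxcr2 at 0.346 to 0.626 against 0.148 to 0.399. Ngp was at 0 in the WT group and reached 0.0432 in the KO group. For S100a8 the level of 3 fragments was 0.396 FPKM in the WT group and 0.388 in the KO group, so its values lay near or under it.

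Gch1, GTP cyclohydrolase 1 (chr14:47153895-47189413), makes the first step of tetrahydrobiopterin synthesis. It was at 3.72, 3.70 and 3.49 FPKM in the WT group and at 2.86, 2.66 and 2.89 in the KO group. The groups did not overlap, with means of 3.64 ± 0.126 and 2.80 ± 0.126 (SD, n = 3), a ratio of 1.30 and a log2 change of -0.29 (SE 0.0534). Nos2 stood at 5.17 to 5.44 times the FPKM of Gch1 in the WT libraries and at 0.0467 to 0.0529 times in the KO libraries, so the enzyme transcript and its cofactor transcript differed by very unequal amounts.

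**Figure D2:**
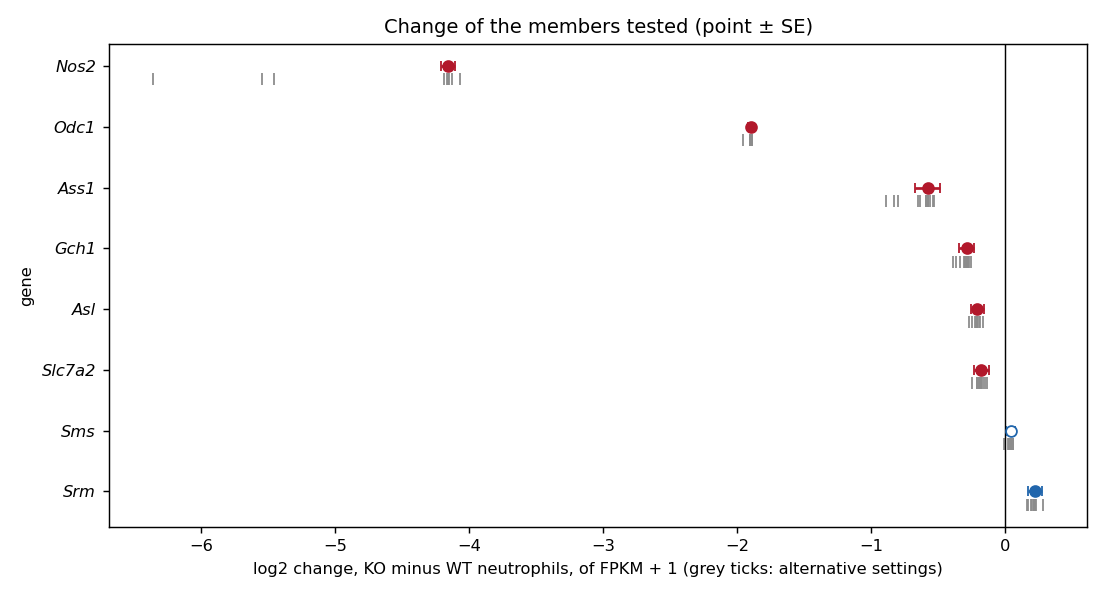
Fitted log2 change, KO minus WT, of log2(FPKM + 1) for the 8 members tested (points, filled where the adjusted p was under 0.05, with SE) and the values under the alternative settings, some of which use another pseudocount or scale (grey ticks). Nos2 and Odc1 lie far to the left under every setting, and Sms lies at 0.04.

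Odc1, ornithine decarboxylase (chr12:17544794-17551505), catalyses the first and regulated step of polyamine synthesis. It was at 431, 429 and 423 FPKM in the WT libraries and at 113, 116 and 112 in the KO libraries. The groups were far apart relative to their spread, with means of 428 ± 3.88 and 114 ± 1.71 (SD, n = 3), a ratio of 3.76 and a log2 change of -1.90 (SE 0.0189). The change stayed between -1.96 and -1.89 in every alternative run and ranked 67 by size. Averaged over the 6 libraries, Odc1 was more abundant than 98.8% of the genes tested. Near-identical copies are listed as genes of their own, and how reads were divided among them is not known. Gm7993 (95.7% identical over 1388 bases) went from a mean of 22.2 to 5.63 FPKM, and Gm17709 (97.8% over 937 bases) from 17.5 to 5.70. Together the copies that reached 0.5 FPKM in any library held 10.3% of the summed FPKM in each WT library and 11.0% to 11.7% in the KO libraries. The sum of Odc1 and these copies was 477 FPKM in the WT group and 128 in the KO group, a log2 ratio of -1.89, so the difference was as large when they were counted together.

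The synthases downstream of Odc1 did not share its difference. Srm, spermidine synthase (chr4:148591503-148594993), was at 123, 136 and 116 FPKM with WT neutrophils and at 148, 142 and 145 with KO neutrophils. The KO libraries were all higher, though the lowest lay close to the highest WT library, with means of 125 ± 9.79 and 145 ± 3.01 (SD, n = 3) and a log2 change of 0.22 (SE 0.0553). Sms, spermine synthase (chrX:157443855-157492287), was at 21.5, 22.2 and 21.3 FPKM in the WT group and at 21.7, 22.2 and 22.9 in the KO group. The groups overlapped, and the log2 change was 0.04 (SE 0.0325), turning to -0.01 when libraries were rescaled to a common sum. Sms-ps is identical to Sms over 1101 bases and held 41.9% to 47.7% of their summed FPKM. That sum was 40.2 in the WT group and 39.1 in the KO group.

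The balance of the polyamine synthesis transcripts therefore differed between the groups. The ratio of Odc1 to Srm was 3.16 to 3.64 in the WT libraries and 0.766 to 0.815 in the KO libraries, so that Srm exceeded Odc1 in every KO library and in no WT library. Amd1 encodes the S-adenosylmethionine decarboxylase that supplies the aminopropyl donor, and Odc1 was 16.2 to 16.5 times its FPKM with WT neutrophils and 3.15 to 3.25 times with KO neutrophils. Odc1 made up 70.0% to 72.1% of the summed FPKM of Odc1, Amd1, Srm and Sms in the WT group and 35.5% to 36.7% in the KO group. The share of Srm was 19.8% to 22.1% and 45.0% to 46.5%. The sum of the 4 was 587 to 613 FPKM in the WT libraries and 315 to 318 in the KO libraries. Copies outside these genes are left out of the shares.

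**Figure D3:**
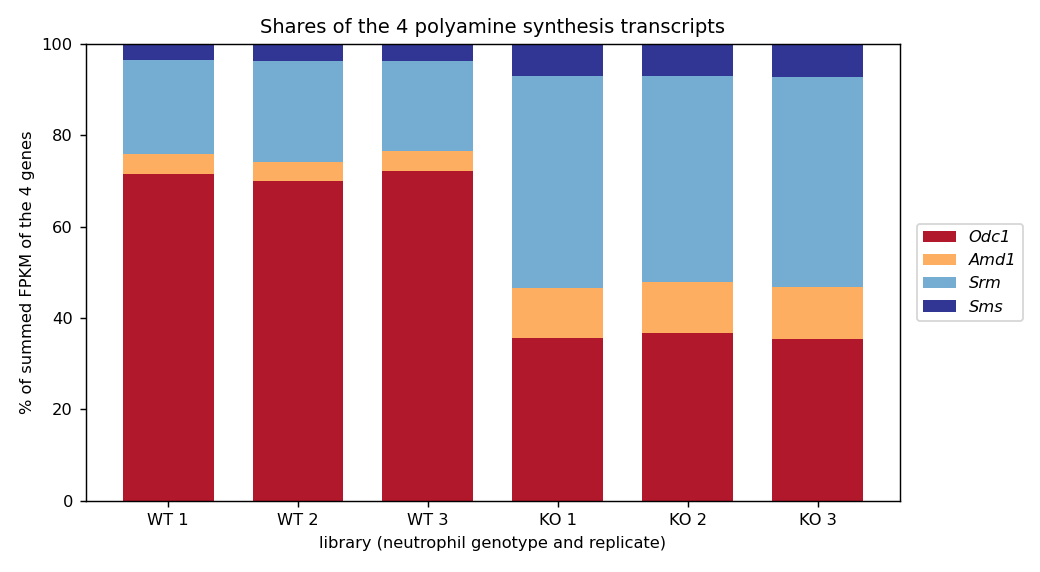
Share of each of Odc1, Amd1, Srm and Sms in their summed FPKM (vertical axis, %, from 0) in each library (horizontal axis). The Odc1 share is 70.0% to 72.1% in the WT libraries and 35.5% to 36.7% in the KO libraries.

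Ordered by mean FPKM, the WT group ran from Odc1 through Srm, Sms, Nos2, Asl, Slc7a2 and Gch1 to Ass1. No neighbours in this order overlapped in their ranges over libraries. In the KO group the order was Srm, Odc1, Sms, Asl, Slc7a2, Gch1, Ass1 and Nos2, again with no overlap between neighbours. Nos2 was thus in the fourth place in one group and the last in the other, and Odc1 and Srm changed places.

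The genes with profiles most like that of Nos2 were searched among all genes tested, as the smallest distance between log2(FPKM + 1) values over the 6 libraries after each gene's mean was subtracted. They were Il1a (distance 0.206), Il6 (0.221), Ccl2 (0.535), Tnf (0.580) and Acod1 (0.596). Il1a, Il6 and Tnf encode inflammatory cytokines, Ccl2 encodes a monocyte chemokine and Acod1 the enzyme that makes itaconate. These distances describe 6 libraries in 2 groups and mostly reflect a step of similar size between the groups on this scale. With a pseudocount of 0.1 the log2 change was -6.36 for Nos2 and -6.46 for Il6. It was -4.49 for Il1a, -4.6 for Ccl2, -3.79 for Tnf and -4.72 for Acod1, so their likeness to Nos2 depends on the pseudocount.

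Other genes of arginine transport and metabolism were then taken from a list written for pathway role, when earlier results of these data were known. The same holds for the nitric oxide and polyamine lists below, so the shares of genes called are given as a description. Of 27 genes listed, 26 were found and 13 were tested. Among these, 11 changed by limma at an adjusted p under 0.05, 4 lower and 7 higher with KO neutrophils, or 84.6% against 43.3% of all genes. Their median log2 change was 0.22. The lower genes included Slc3a2, the heavy chain shared by several amino acid transporters, which was at 117, 116 and 113 FPKM in the WT group and at 75.5, 72.1 and 75.2 in the KO group (log2 change -0.63, SE 0.026, limma adjusted p = 8.8e-06). Padi2, a peptidylarginine deiminase, was at 9.02, 9.40 and 9.78 FPKM and at 5.27, 4.48 and 5.24 (-0.80, SE 0.0665, limma adjusted p = 0.000201). Both were separate between the groups in every library. The other genes that fell were Slc7a1, the constitutive cationic amino acid transporter, and Prmt5, an arginine methyltransferase, with log2 changes of -0.20 and -0.13 (limma adjusted p = 0.00159 and 0.00957); they count among the 4 but lie outside the rule by which genes were named, as does the transporter gene Slc7a6, at 21.3 FPKM in the WT group and 23.6 in the KO group (0.14, limma adjusted p = 0.0461). The call of Slc7a6 was lost under 10 of the 15 alternatives (limma adjusted p of 0.0507 to 0.13), among them the replicate block, rescaling to a common sum and each fit without 1 library other than KO 2. Slc7a1 stood at 7.39 to 8.04 times Slc7a2 in the WT libraries and at 7.28 to 8.51 times in the KO libraries, ranges that overlapped.

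Oat, ornithine aminotransferase, had a mean of 43.1 ± 1.48 FPKM in the WT group and 60.1 ± 0.436 in the KO group (SD, n = 3; log2 change 0.47, limma adjusted p = 6.11e-05). Aldh4a1, which completes the breakdown of proline to glutamate, rose from 1.11 to 2.52 FPKM (0.75, limma adjusted p = 0.00473). Aldh18a1, which starts proline and ornithine synthesis from glutamate, rose from 58.0 to 67.9 FPKM (0.22, limma adjusted p = 0.00141). Slc25a15, the mitochondrial ornithine carrier, rose from 3.09 to 4.02 FPKM (0.30, limma adjusted p = 0.0192), a call lost without WT 1, WT 3, KO 2 or KO 3 (limma adjusted p of 0.0537 to 0.0622). The creatine genes Gamt, which makes creatine, and Slc6a8, which imports it, rose by 0.78 (limma adjusted p = 0.00521) and 0.32 (limma adjusted p = 0.0126). Gamt was at 0.491 FPKM in the WT group and 1.57 in the KO group, so it passed the filter only through the KO group, and the means of Gamt and Aldh4a1 were 3.20 and 2.27 times higher there, past 2-fold outside the fitted scale. Pycr1, of the last step of proline synthesis, had a log2 change of 0.15 (limma adjusted p = 0.226), and Prmt1, an arginine methyltransferase, was at 25.7, 37.9 and 44.5 FPKM in the WT group and at 45.3, 46.9 and 44.7 in the KO group (0.37, limma adjusted p = 0.155). Aldh4a1 shares exon sequence with Gm21969 on the same strand, and Padi2 with Gm13031 on the opposite strand. The urea cycle genes Otc, Cps1 and Nags, and Agmat of agmatine breakdown, were listed at 0 in all 6 libraries.

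The list for nitric oxide synthesis, tetrahydrobiopterin and nitric oxide sensing held fewer changes. Of 16 genes, 10 were tested and 2 rose, 0 fell, a share of 20.0% against 43.3% of all genes, with a median log2 change of 0.13. The call of one of them, Nostrin, ended without KO 1 or without KO 3, which left 1. Calm2 encodes calmodulin, a bound subunit of the nitric oxide synthases, and Nostrin encodes a trafficking adaptor of the endothelial enzyme. Calm2 was at 81.5, 83.8 and 79.7 FPKM in the WT group and at 127, 127 and 130 in the KO group (0.64, SE 0.0252, limma adjusted p = 7.38e-06). Nostrin rose by 0.26 (limma adjusted p = 0.0204), and its adjusted p was 0.0604 with the replicate number as a block. Pts, which makes the second step of tetrahydrobiopterin synthesis, was at 3.04 ± 0.272 and 2.92 ± 0.293 FPKM (SD, n = 3), and its log2 change was -0.04 (limma adjusted p = 0.686). Nos1, the neuronal synthase, was at 0.690 to 1.32 FPKM in the WT group and at 0.858 to 1.94 in the KO group (0.12, limma adjusted p = 0.677), and Gm26995 overlaps it on the opposite strand. Nos3, the endothelial synthase, and the guanylate cyclase genes Gucy1a1, Gucy1a2 and Gucy1b1, whose products sense nitric oxide, were listed at 0 in all 6 libraries. Nos2 was therefore the most abundant synthase transcript in each WT library, while Nos1 exceeded it in each KO library.

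The polyamine list outside the members held 24 genes, of which 20 were tested and 12 changed, 2 lower and 10 higher, or 60.0% against 43.3% of all genes, with a median log2 change of 0.22. Smox, spermine oxidase, which converts spermine back to spermidine, fell from 27.4, 24.8 and 22.9 FPKM to 9.22, 8.99 and 8.30. On the fitted scale this was the one listed gene outside the members past 2-fold (log2 change -1.40, SE 0.0719, limma adjusted p = 2.37e-05). Sat1, the acetyltransferase of the other catabolic route, rose from 32.8 ± 0.147 to 40.2 ± 0.390 FPKM (SD, n = 3; 0.29, limma adjusted p = 0.000147). The ratio of Smox to Sat1 was 0.695 to 0.833 in the WT libraries and 0.205 to 0.229 in the KO libraries. Dhps, which uses spermidine to form hypusine on eIF5A, fell from 17.0 to 13.3 FPKM (-0.33, limma adjusted p = 0.00617), while Eif5a itself was at 412 ± 21.1 and 406 ± 1.41 (SD, n = 3; -0.02, limma adjusted p = 0.709). Wdr83 overlaps Dhps on the opposite strand.

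Amd1, described above, was at 26.3, 26.1 and 26.2 FPKM in the WT group and at 35.0, 35.6 and 35.7 in the KO group (0.42, SE 0.0234, limma adjusted p = 3.37e-05), a difference opposite in sign to that of Odc1. Amd2 rose by 0.37 (limma adjusted p = 0.00473), but it is 99.6% identical to Amd1 over 3202 bases, so the pair cannot be told apart, and Amd1 with its copies that reached 0.5 FPKM summed to 37.6 FPKM in the WT group and 51.3 in the KO group. Mat2a, which makes S-adenosylmethionine, rose by 0.36 (limma adjusted p = 0.00701), and Adi1 of the methionine salvage pathway rose from 39.8 to 61.6 FPKM (0.62, limma adjusted p = 0.000147). Of other genes of that salvage pathway, named after their values were seen, Mtap and Enoph1 rose (0.18 and 0.20, limma adjusted p = 0.000744 and 0.00745), and Mri1 and Apip did not pass (0.24 and 0.34, limma adjusted p = 0.125 and 0.0624), though Apip passed with the replicate block (limma adjusted p = 0.00895). Atp13a2, a lysosomal polyamine exporter, rose by 0.42 (limma adjusted p = 0.000428). Oaz2, an antizyme that targets ornithine decarboxylase for degradation, was at 6.13 ± 0.548 and 5.91 ± 0.0979 FPKM (SD, n = 3; -0.04, limma adjusted p = 0.627).

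**Figure D4:**
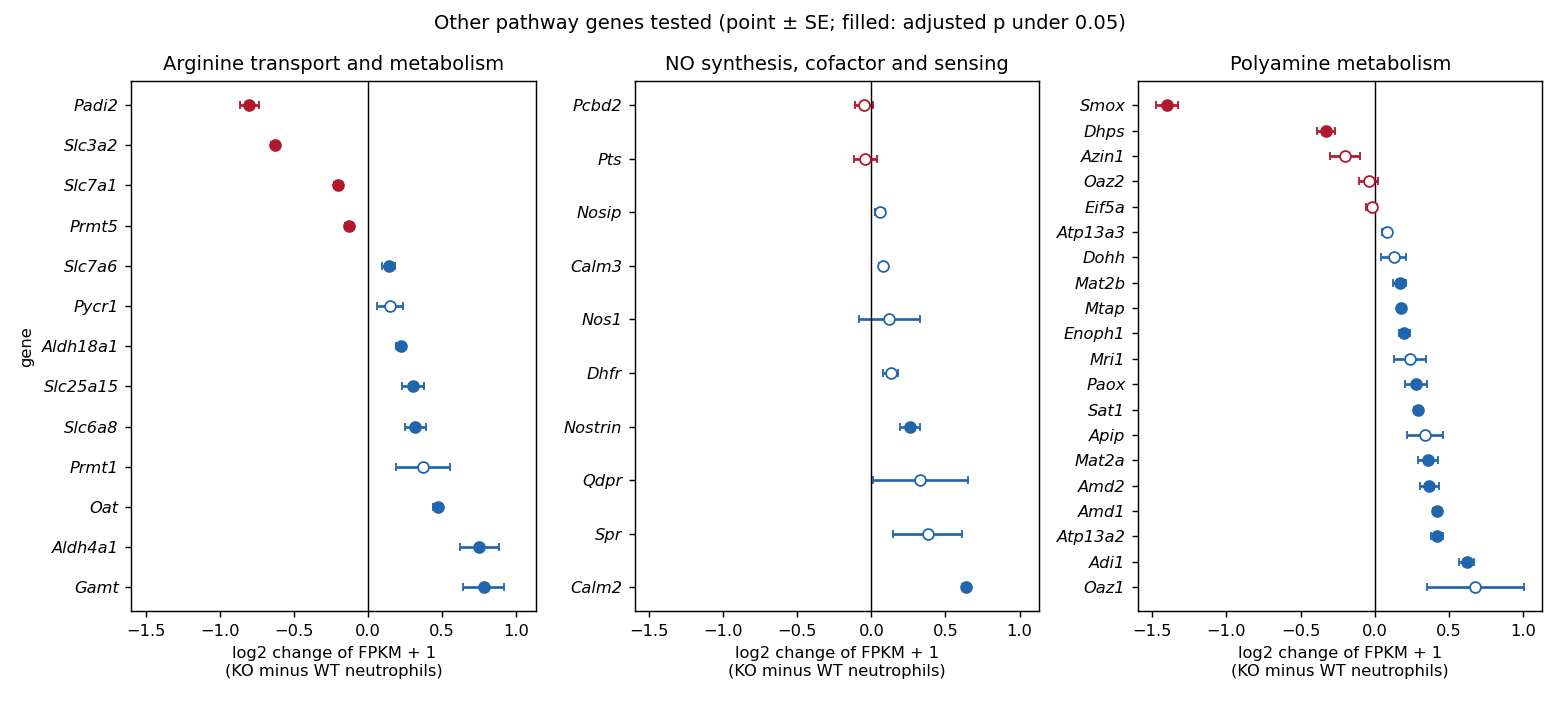
Fitted log2 change, KO minus WT, of log2(FPKM + 1) with SE (horizontal axis) for the genes tested of the 3 pathway lists (panels); filled points had an adjusted p under 0.05 in limma. Smox is the lowest at -1.40, and 10 of the 12 polyamine genes called are to the right of 0.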

How the data were processed

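RNA of 6 libraries of sorted microglia, 3 per neutrophil genotype, was analysed. The authors deposited 1 table of FPKM values for 55335 gene identifiers, with 1 column per library and replicates not pooled. The submitters' processing notes name fastp 0.17.1, HISAT2 2.1.0, DESeq2 1.18.1 and R 3.4.3. The quantifier, genome build and annotation are not given in the sources used here, and labels and methods name different library kits and sequencers. Symbols and positions came from GENCODE M21 (GRCm38), which held 55154 of the identifiers (99.67%). Promoters came from RefSeq.

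Depth was inferred from the smallest steps of low values as 15.57 to 19.23 per library in units of 1e+06 fragments. Only 28.6% to 30.7% of low values were whole to within 0.05 of a fragment, against 10.0% by chance, so counts were not recovered and no count test was run. The floor of 3 fragments covers counting error only.

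The 11395 genes that averaged 1 FPKM or more were fitted as log2(FPKM + 1) in limma 3.58.1 (R 4.3.3; trended eBayes, no covariates), with Benjamini-Hochberg adjustment over all of them and calls at 0.05. The procedure was tested on simulated data. An exact permutation test of 3 against 3 libraries cannot go below p = 0.1 and was not used. Near-identical copies were transcripts with at least 95% identity over at least 200 bases (BLAST).

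The members and gene lists were chosen with earlier results of these data known. Named were all members described, up to 8 genes called per list by size of change with up to 2 of the largest adjusted p, and the 5 genes most like the member with the largest fall. Alternatives changed the pseudocount, filter, scale, variance trend, pairing or libraries. Of the genes chosen, 2 members, 2 genes of the pathway lists and 1 marker gene are not reported here, and the counts leave them out.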

Additional observations from a re-analysis of the deposited data

How the results depend on the processing

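Of 681 comparisons of a single gene with an alternative setting, 640 kept their side of the threshold, 35 fell short of the threshold, 6 newly passed it (Prmt1 without WT 3, log2 change 0.53; Oaz1 without WT 3 or KO 3, 0.97 in both; Apip without WT 2 or KO 3, 0.44 in both, and under the replicate block) and 0 changed sign where either fit made a call. Among the 640, 5 changed sign, for Sms, Pts, Nos1 and Eif5a, which were not called. With a mean of at least 5 FPKM required, 4 members were called, since only 5 were then tested. Leaving out 1 library at a time gave 4082 to 4223 genes called among all genes tested, against 4930 with all libraries, 5 members in each case, 9 to 10 genes of the arginine list, 1 to 3 of the nitric oxide list and 10 to 13 of the polyamine list. Slc7a2 was not called in any of these 6 fits, nor without a filter on low values or after quantile normalization. Asl was not called without WT 2 (log2 change -0.17), WT 3 (-0.20) or KO 2 (-0.19), and Srm without WT 1 (0.21), KO 1 (0.20) or KO 3 (0.21), nor without a filter or after quantile normalization. Slc25a15 lost its call without WT 1 (0.25), WT 3 (0.29), KO 2 (0.30) or KO 3 (0.26) and without a filter, Nostrin without KO 1 (0.26) or KO 3 (0.23), and Slc7a6 in each fit without 1 library (0.10 to 0.15) other than KO 2. The cause was not tested.

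Same-numbered libraries did not deviate together (r of -0.075, -0.052 and -0.005), so the replicate number does not pair them. The fit with this replicate block called 4212 genes in all, 6 members, 10 arginine, 1 nitric oxide and 11 polyamine genes among them. The calls of Slc7a2, Slc7a6 (limma adjusted p = 0.0878) and Nostrin (limma adjusted p = 0.0604) ended under the block, and no other named gene lost its call there.

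Rescaling each library to a common sum moved the share of lower genes among all calls from 43.4% to 55.0%, and turned the direction of no member or listed gene that had been called. A common sum of nuclear genes alone, chosen after seeing the data, gave 42.7%. With a pseudocount of 0.1 the log2 change was -6.46 for Il6, -6.36 for Nos2, 1.52 for Gamt and 1.15 for Aldh4a1. FPKM keep no counts, so precision rests on the 3 libraries per group. Extending the promoter windows by 50 bases past the start added no motif match in Odc1, Gch1 or Sms.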

Other observations

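The antizyme gene Oaz1, whose product limits ornithine decarboxylase, was at 10.9, 11.1 and 20.8 FPKM in the WT group and at 28.3, 27.1 and 14.6 in the KO group, so the groups overlapped (log2 change 0.68, limma adjusted p = 0.142), and without WT 3 or without KO 3 the adjusted p in limma was 0.0495 or 0.0463. Its copy Oaz1-ps is 99.3% identical over 685 bases and was at 37.0, 34.8 and 35.2 FPKM and at 50.3, 51.8 and 53.8. The pair summed to 45.9 to 56.0 FPKM in the WT libraries and 68.4 to 78.9 in the KO libraries, and the copy held 62.9% to 78.7% of the sum. Qdpr, which regenerates tetrahydrobiopterin, scattered in a like way within groups, at 24.9, 14.6 and 13.7 FPKM and at 26.3, 27.9 and 13.9 (log2 change 0.33, limma adjusted p = 0.448). Both genes were also chosen after their values were seen.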
